A study of Homo sapiens with 24 samples.

Results

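The libraries described are the 6 sensory neuron cultures treated with IL-6 and the 6 vehicle cultures paired with them by batch label, 12 of the 24 libraries of the series. They were chosen by the last word of their titles, with no measured value. All cultures came from the H9WAO9 human embryonic stem cell line, taken through vagal neural crest spheroids to sensory neurons. The 6 batch labels are therefore not 6 donors, and the study describes its batches as batches of differentiation. Its methods give N = 5 RNA samples per condition, while each group here has 6 libraries. The Vehicle group received PBS with 0.1% BSA, the solvent of the cytokines, for 5 days, and the IL-6 group received interleukin 6. Neither the dose of IL-6 nor the time of exposure is given in the sources used here, so it is not known whether the groups match in time. The other 12 libraries, from cultures kept for 5 days with TGF-β at 2 ng/ml or with a mix of IL-4 at 10 and IL-13 at 3 ng/ml, entered the fits to estimate the spread. RNA was taken from whole cultures, of which the study counted only a minority of cells as neurons, and bulk counts cannot tell fewer cells of a type from less RNA per cell.

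Interleukin 6 signals through a pair of receptor chains. The cytokine binds IL6R, its specific receptor, and the pair engages IL6ST (gp130), the signalling chain shared by most of the cytokine family. Cells that carry IL6ST but no IL6R can still respond when a soluble form of IL6R is supplied by shedding. Janus kinases bound to gp130 then phosphorylate STAT3, which enters the nucleus and switches on target genes. SOCS3 is a rapid target and feeds back on the receptor, and SHP2 (PTPN11) links the receptor to the MAPK pathway. In sensory ganglia this pathway is known for its part in pain sensitization and in the response of neurons to axon injury.

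STAT3 binds the palindrome TTCNNNGAA, and its occurrence near the starts of the target genes is shown here because the comparison turns on these genes. Of 28 STAT3 target genes listed, 20 had a RefSeq promoter of 300 bases on GRCh38.p14, from 250 bases before the start to 50 after it. The motif, the same on both strands, was present in the windows of 4 genes (IRF1, BCL6, ICAM1 and LRG1). It was present in 7.657% of the 35116 promoter windows of all genes, and in neither of the 2 windows of SOCS3. That share counts windows, while 4 of 20 counts genes, some of which had 2 windows, so they are unlike measures. Sites outside these windows were not searched, for SOCS3 as for the other genes. BCL6 held 4 motifs in 1 of its 2 windows, at 28 and 5 bases before and 10 and 36 bases after the start. The other 3 genes held 1 each. The site farthest before the start of each gene is given 5′ to 3′ on the strand of the gene, with that motif in capitals, followed by the stretch of the CISH promoter that holds 4 motifs. CISH is a SOCS family gene that STAT5 and STAT6 induce, and it serves below as the measured response to the other cytokines. Only this spacing of the motif was searched, and which STAT protein binds the CISH sites was not tested.
IRF1, chr5:132490879-132490907, minus strand: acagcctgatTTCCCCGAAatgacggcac
BCL6, chr3:187745478-187745506, minus strand: gaagctcaaaTTCCGAGAAttgagctctg
ICAM1, chr19:10271035-10271063, plus strand: ggcgcgaggtTTCCGGGAAagcagcaccg
LRG1, chr19:4540180-4540208, minus strand: aggaaacaatTTCCAGGAAgcaattttgt
CISH, chr3:50611868-50612024, minus strand: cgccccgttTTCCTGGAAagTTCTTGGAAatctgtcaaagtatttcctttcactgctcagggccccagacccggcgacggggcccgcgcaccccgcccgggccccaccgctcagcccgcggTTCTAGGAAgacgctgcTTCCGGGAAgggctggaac

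Each library had between 33529302 and 39425309 counted reads, with medians of 35455602 for IL-6 and 37507170 for vehicle. Neuronal transcripts were present in all 12 libraries. The summed level of the 8 neuron markers was 1656, 4825 and 6523 CPM in vehicle and 2186, 4696 and 6075 CPM in IL-6 libraries (lowest, median and highest, in CPM, the reads of a gene relative to the TMM-scaled total of its library). Among sensory genes, PRPH (peripherin) had medians of 450 and 389 CPM and P2RX3, an ATP receptor of sensory endings, 105 and 110 CPM. In contrast, the nociceptor sodium channel SCN10A had medians of 0.142 and 0.119 CPM and the CGRP gene CALCA 0.611 and 0.477 CPM. The cultures also held mesenchymal transcripts, at summed medians of 5934 CPM in vehicle and 6108 CPM in IL-6 libraries for 7 markers.

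Not every IL-6 library resembled the vehicle library of its own batch. After the group mean was taken from each of 14854 entries, the correlation between the IL-6 and the vehicle library of a batch was 0.89, -0.04, 0.72, 0.42, 0.33 and 0.76 in batches 1 to 6. The points are entries of the same 2 libraries and are given as a description. The IL-6 library of batch 2 had a correlation of 0.47 with the vehicle library of batch 4, and the IL-6 library of batch 4 had 0.64 with the vehicle library of batch 2. The 3 treated libraries of batch 2 correlated with each other at 0.86 to 0.89. The vehicle library labelled batch 2 had correlations of -0.04, 0.06 and -0.07 with them (IL-6, IL-4 + IL-13 and TGF-β). With the treated libraries of batch 4 it had 0.64, 0.54 and 0.67, in the same order. With those of batch 3 it had 0.55, 0.56 and 0.62. The treated libraries of batch 4 also had 0.53, 0.68 and 0.75 with the vehicle library labelled batch 3. The vehicle library labelled batch 4 had 0.42, -0.05 and 0.18 with the treated libraries of batch 4. With those of batch 2 it had 0.47, 0.57 and 0.52. The labels were kept as given. Batch 2 held 51.8% of the summed squared within-batch differences between IL-6 and vehicle over all entries. The SD of its within-batch log2 differences was 0.651, compared with 0.244 to 0.328 in the other 5 batches. Log2 fold changes and medians are therefore also given without batch 2 where their sign turned or their size moved most. The pair of batch 4 stays in those fits, and values without batches 2 and 4 are given only for some genes and lists.

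**Figure D1:**
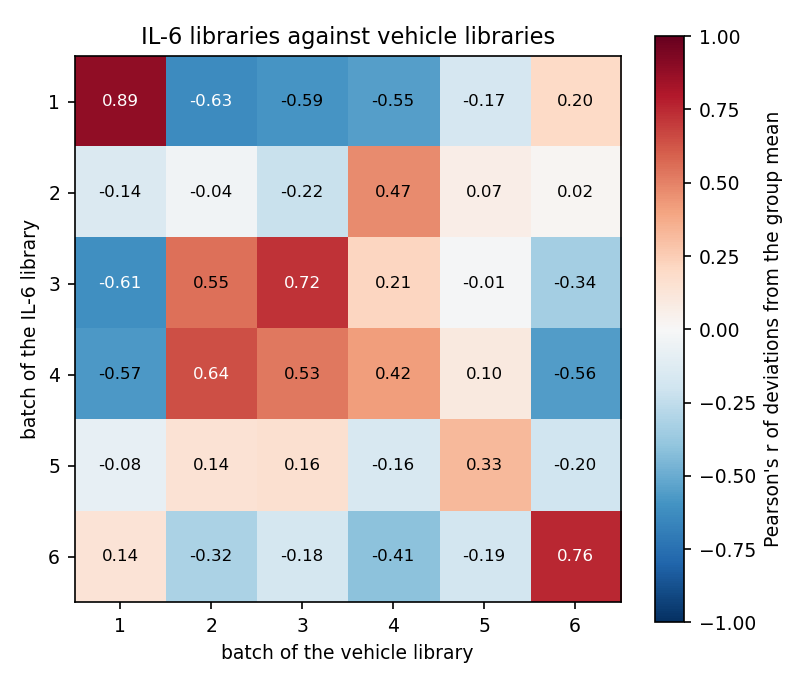
Pearson's r between the deviations of each IL-6 library (rows, by batch) and each vehicle library (columns, by batch) from their group means, over 14854 entries. The diagonal holds the pairs compared here, and the value for batch 2 is -0.04 while that for batch 1 is 0.89.

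In edgeR, no gene met the criteria for a called difference under IL-6. These were an adjusted p under 0.05 together with more than a 2-fold change. edgeR's quasi-likelihood test called 0 of 29377 entries (0%), also when the fold was left out, and the lowest adjusted p was 0.850. At an unadjusted p under 0.05 there were 1400 entries (4.77%), 682 higher (2.32%) and 718 lower (2.44%) under IL-6. Without batch 2 these were 616 entries (2.13%), 329 of them higher (1.14%), and without batches 2 and 4 there were 842 (2.97%). Against the same vehicle libraries, this model called 109 entries (0.371%) in the IL-4 + IL-13 and 42 (0.143%) in the TGF-β contrast. DESeq2's Wald test called 155 entries (0.528%), of which 76 were higher and 79 lower. Of these 155, 148 had no reads in at least 6 of the 12 libraries and 114 were unnamed NewGene loci, and none was in the STAT3 list. The median log2 fold change over all entries tested was -0.01, and 61% of them had a 95% interval that lay within 2-fold in either direction.

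The within-batch differences also had little in common across batches. Of the summed squared log2 differences (CPM + 1) over all entries, 17.8% lay along the mean difference of the 6 batches, where unrelated differences give 16.7% (exact sign-flip test, one-sided, p = 0.344, smallest possible 0.03125). In the IL-4 + IL-13 contrast this share was 24.2% (p = 0.125, exact) and in the TGF-β contrast 18.4% (p = 0.4375, exact). None of these 3 shares passed the test.

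IL6R, the gene of the specific receptor (chr1:154405343-154469450), was transcribed at a low level in every library. Its levels were 4.46, 5.52 and 9.08 CPM in vehicle and 1.14, 5.47 and 6.596 CPM in IL-6 libraries (lowest, median, highest), with 37 to 322 reads per library. The groups overlapped, and the lowest value belonged to the IL-6 library of batch 2. The log2 fold change was -0.44 (SE 0.31, 95% interval -1.08 to 0.20, adjusted p = 0.850), with 2 of 6 batches higher, and it was -0.02 without batch 2. IL6ST, the gene of gp130 (chr5:55935095-55994963), had 147, 218 and 263 CPM in vehicle and 103, 204 and 254 CPM in IL-6 libraries. These levels overlapped as well, with a log2 fold change of -0.19 (SE 0.16, adjusted p = 0.860) and 4 of 6 batches higher, and without batch 2 it was 0.06. Per kilobase of exon, the mean vehicle level was 0.843 CPM for IL6R and 17.6 CPM for IL6ST. Counts per gene do not separate the membrane-bound from the soluble form of the receptor.

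**Figure D2:**
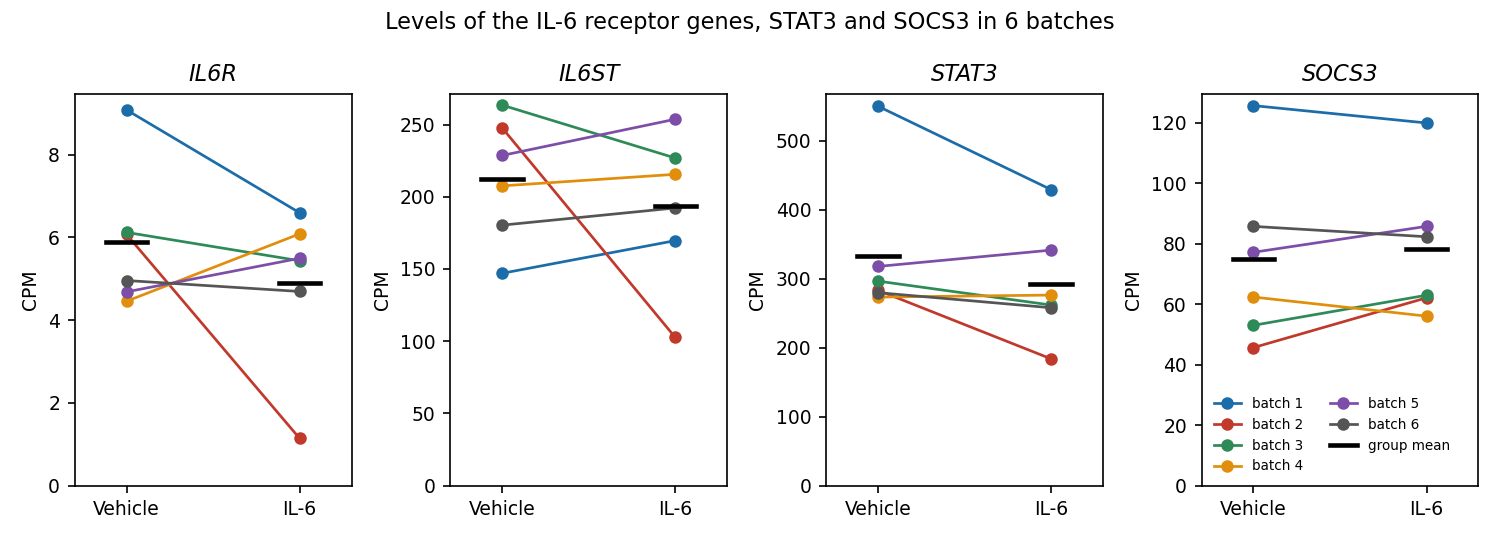
Levels in CPM of IL6R, IL6ST, STAT3 and SOCS3 in the vehicle and IL-6 libraries of 6 batches, with lines joining the libraries of a batch and black bars for group means. The groups overlapped for all 4 genes, and the widest gap for IL6R is that of batch 2, with 6.07 CPM in vehicle and 1.14 CPM under IL-6.

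The machinery around the receptor was expressed, and no gene of it passed the test. ADAM17, the protease that sheds IL6R, had a median of 53.4 CPM in vehicle and 57.1 CPM in IL-6 libraries, with a log2 fold change of -0.01 (SE 0.08). All 4 shedding genes had log2 fold changes below 0, from -0.32 to -0.01, of which RHBDF1, an iRhom that escorts the protease to the surface, had an unadjusted p of 0.0436 that did not hold after adjustment (adjusted p = 0.850). RHBDF1 was at -0.16 without batch 2. The kinase JAK1 had medians of 311 and 294 CPM, JAK2 17.4 and 16.1 CPM and TYK2 41.5 and 42.6 CPM. STAT3 itself (chr17:42313324-42388442), the transcription factor of the pathway and also its own target, had 273, 290 and 550 CPM in vehicle and 184, 269 and 429 CPM in IL-6 libraries. The groups overlapped, and the highest level in each group was that of batch 1. Its log2 fold change was -0.20 (SE 0.09, unadjusted p = 0.0342, adjusted p = 0.850), with 2 of 6 batches higher, and -0.11 without batch 2. STAT5A, a related factor, was lower in all 6 batches at a log2 fold change of -0.43 (SE 0.17, adjusted p = 0.850), from medians of 5.36 to 4.17 CPM, and was at -0.16 without batch 2. Over the 11 transducers the median log2 fold change was -0.06, with 0 called, and the 95% interval of all 11 lay within 2-fold.

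SOCS3 (chr17:78356778-78360925), the feedback inhibitor that STAT3 induces, was well measured, with 1691 to 4453 reads per library. Its levels were 45.6, 69.7 and 126 CPM in vehicle and 56.0, 72.6 and 120 CPM in IL-6 libraries. IL-6 libraries were higher in batches 2, 3 and 5 and lower in the other 3, so the groups overlapped throughout. The log2 fold change was 0.09 (SE 0.09, adjusted p = 0.882), and its 95% interval ran from -0.10 to 0.27, that is from 0.934-fold to 1.21-fold. The mean within-batch log2 ratio was 0.09 ± 0.23 (SD, n = 6 batches; exact sign-flip test, two-sided, p = 0.40625, smallest possible 0.03125). Without batch 2 the log2 fold change was 0.02. As the time of exposure is not given, a brief rise before harvest would not be seen in these levels.

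The other brakes on the pathway also had 0 called members. The 9 inhibitors had a median log2 fold change of 0.07, with 6 above and 3 below 0, against -0.01 for all entries. SOCS1, which is induced by several cytokines, had medians of 3.16 CPM in vehicle and 3.38 CPM in IL-6 libraries, and a log2 fold change of 0.15 (SE 0.18, adjusted p = 0.902). Its within-batch log2 ratio was -0.19 and -0.86 in batches 1 and 2 and 0.52, 0.40, 0.34 and 0.83 in batches 3 to 6. Without batch 2 its log2 fold change was 0.385 (SE 0.14, unadjusted p = 0.0131), the only inhibitor under 0.05 in that fit, in which no gene passed after adjustment. CISH had the highest value among them, at a log2 fold change of 0.41 (SE 0.36, adjusted p = 0.866), with 1.33 and 1.52 CPM as medians and 3 of 6 batches higher. Its highest IL-6 library, at 4.19 CPM, was that of batch 2, and its log2 fold change was 0.16 without that batch. PTPN1 and PTPN2, phosphatases that act on Janus kinases and STAT proteins, had log2 fold changes of -0.09 and 0.08 (SE 0.11 and 0.09), and of 0.03 and -0.01 without batch 2.

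STAT3 target genes had no common direction under IL-6. None of the 28 was called by edgeR or by DESeq2, 13 had a log2 fold change above and 15 below 0, and the median was -0.08 (all entries, -0.01). Without batch 2 the median was 0.03. The 95% interval lay within 2-fold for 25 of the 28, the exceptions being BIRC5, LRG1 and GFAP, of which LRG1 and GFAP had medians of 0.213 and 1.67 CPM in vehicle. NNMT, a methyltransferase of nicotinamide (chr11:114257806-114313536), was the only member higher in all 6 batches. It had 15.2, 25.9 and 76.8 CPM in vehicle and 19.04, 33.3 and 82.5 CPM in IL-6 libraries. The groups overlapped, and batch 1 was the highest in both. Its log2 fold change was 0.27 (SE 0.09, unadjusted p = 0.00961, adjusted p = 0.850) and 0.20 without batch 2. Of all entries, 1.22% were higher in 6 of 6 batches.

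No member passed the test in any role. Among immediate early factors, JUNB and FOS had log2 fold changes of -0.17 and -0.33 (SE 0.19 and 0.30). CEBPB and CEBPD, which drive acute phase genes, had 0.07 and 0.11 (SE 0.12 and 0.16). Survival and growth genes were also close to 0, with MCL1 at 0.12 (SE 0.09), BCL2L1 at -0.13 (SE 0.09), PIM1 at 0.06 (SE 0.11), MYC at -0.08 (SE 0.17) and CCND1 at 0.13 (SE 0.09). BIRC5 (survivin) had the largest value of the list, a log2 fold change of 1.11 (SE 0.44, unadjusted p = 0.0225, adjusted p = 0.850), from 0.818, 2.55 and 5.77 CPM in vehicle to 2.27, 4.39 and 32.3 CPM in IL-6 libraries. The groups overlapped. The value was 0.79 without batch 2, 1.10 without batches 2 and 4, and 0.27 without batches 1 and 2. In the libraries of the other treatments BIRC5 had medians of 4.61 CPM (IL-4 + IL-13) and 3.18 CPM (TGF-β). The 4 genes with a STAT motif in the window also had no call, with IRF1 at 0.06 (SE 0.14), BCL6 at -0.36 (SE 0.24), ICAM1 at 0.04 (SE 0.17) and LRG1 at -0.43 (SE 0.34). Without batch 2 the sign turned for FOS (0.16), JUNB (0.05), MYC (0.19), BCL6 (0.04), PIM1 (-0.06) and MCL1 (-0.004), and none passed the test.

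**Figure D3:**
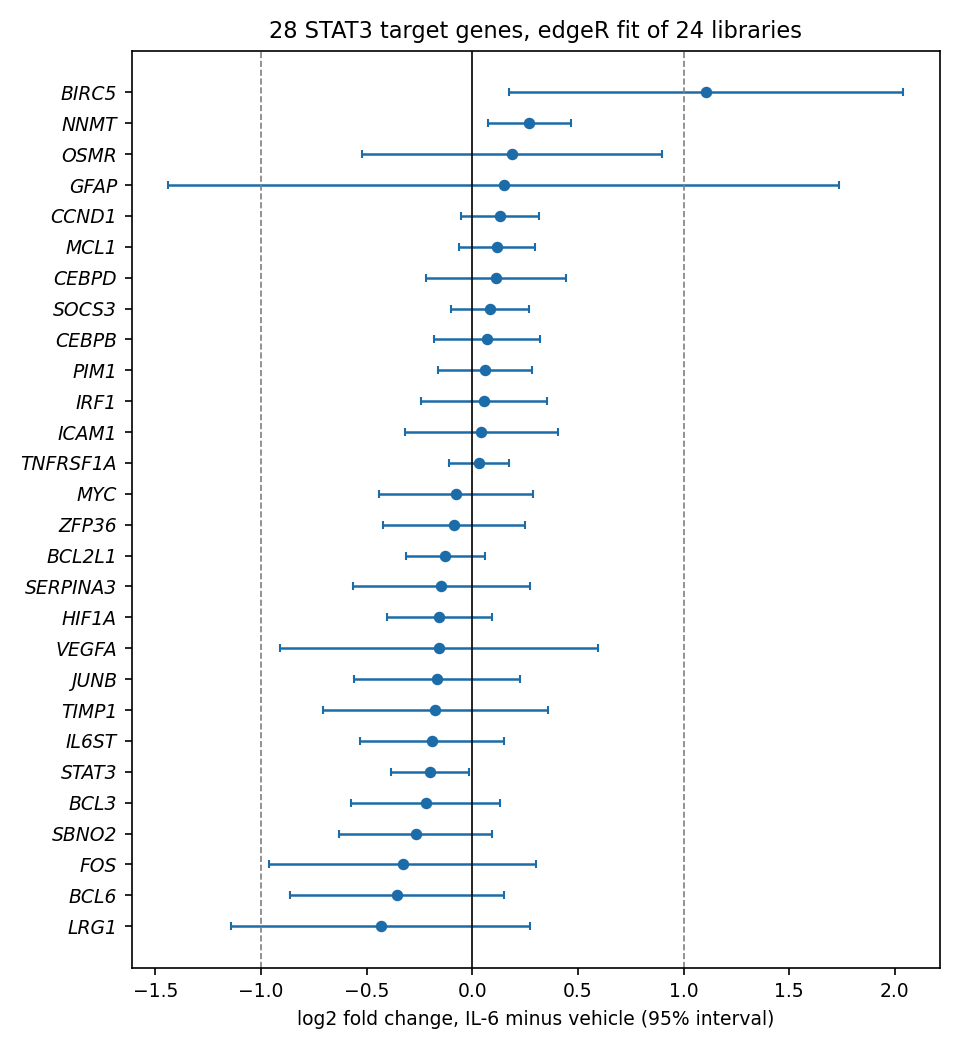
Log2 fold change (IL-6 minus vehicle) with its 95% interval for 28 STAT3 target genes, from the edgeR fit of 24 libraries, with dashed lines at 2-fold. Intervals of 25 genes lie within the dashed lines, and NNMT, BIRC5 and STAT3 are the 3 whose intervals do not reach 0.

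Acute phase genes, the classic hepatic output of IL-6, were expressed only in part. Of 23 genes, 21 were tested and edgeR called 0. DESeq2 called CRP, which had 2 reads in the 12 libraries, both in a single library. The 21 genes had a median log2 fold change of 0.14, and only 6 had a 95% interval within 2-fold. SERPINA3 (antichymotrypsin), a STAT3 target in many tissues, had 214, 391 and 2713 CPM in vehicle and 112, 422 and 1509 CPM in IL-6 libraries. Both groups spread widely and overlapped, with a log2 fold change of -0.15 (SE 0.20, adjusted p = 0.910) and 0.10 without batch 2. Ceruloplasmin (CP) had medians of 328 and 319 CPM, and the complement gene C3 81.7 and 104 CPM. Typical liver products were lower, with medians of 0.153 and 0.386 CPM for SAA1, which reached 10.9 CPM in a vehicle library, and 0.137 and 0.0826 CPM for the hepcidin gene HAMP. LBP and ORM1 had no read in any of the 12 libraries, which does not show that they were silent. LBP was still among the 21 tested, through reads in the other treatments, so its part in the median rests on no read of these groups. Among 8 genes of metal handling, with a median of -0.07 and 0 called, the IL-6 responsive zinc transporter gene SLC39A14 had medians of 67.7 and 73.99 CPM and a log2 fold change of 0.00 (SE 0.10).

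The cultures themselves transcribed several cytokines of the family. LIF had 30.5, 49.97 and 193 CPM in vehicle and 20.4, 55.7 and 135 CPM in IL-6 libraries. IL11 had 11.9, 20.8 and 85.7 CPM in vehicle and 13.8, 25.7 and 64.1 CPM in IL-6 libraries. IL6 had 1.12, 1.87 and 6.43 CPM in vehicle and 0.463, 2.00 and 4.35 CPM in IL-6 libraries. The vehicle library of batch 1 was the highest of all 12 for LIF and for IL6. No difference passed the test, at log2 fold changes of -0.10 for LIF, 0.04 for IL11 and -0.30 for IL6 (SE 0.23, 0.17 and 0.52). Without batch 2 they were 0.16, 0.08 and 0.31. OSM had 6 reads or fewer in every library. Of 11 ligand genes, 9 were tested and IL27 and IL31 had no read. All 8 receptor genes of the family were tested, with 0 called and a median of -0.15, or -0.02 without batch 2. LIFR and CNTFR, the receptors for LIF and ciliary neurotrophic factor, had medians of 108 and 41.4 CPM in vehicle. IL31RA, an itch receptor of sensory neurons, had 1.07, 1.45 and 4.02 CPM in vehicle and 0.524, 1.26 and 1.37 CPM in IL-6 libraries, at a log2 fold change of -0.80 (SE 0.32, unadjusted p = 0.0223, adjusted p = 0.850) and 2 of 6 batches higher, and at -0.36 without batch 2.

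The MAPK arm and the genes that overlap with interferon signalling had no call either. Of 21 immediate early and MAPK feedback genes, 0 were called and none had an unadjusted p under 0.05, with a median log2 fold change of -0.17, and 0.02 without batch 2. EGR1, a transcription factor induced within minutes of ERK activation, had a log2 fold change of -0.25 (SE 0.20), and the ERK phosphatase DUSP6 -0.28 (SE 0.23), which were 0.02 and 0.04 without batch 2. The time of exposure is not given, so a brief rise of such genes that was over at harvest would not be seen. Of 23 interferon-stimulated genes, 20 were tested and the median was -0.01. ISG15, a ubiquitin-like modifier, had 1.94, 3.84 and 4.72 CPM in vehicle and 2.87, 5.27 and 7.43 CPM in IL-6 libraries, which overlapped. Its log2 fold change was 0.43 (SE 0.15, unadjusted p = 0.0115, adjusted p = 0.850), higher in 5 of 6 batches and 0.50 without batch 2. IFIT1, an interferon-induced RNA-binding protein, had a log2 fold change of -0.05 (SE 0.15). The loci of PSMB8, PSMB9 and TAP1 are listed 8 times each in the table, and the entries examined held no reads.

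Genes of the sensory neuron itself also showed no called difference. None of 23 sensory channel genes was called or had an unadjusted p under 0.05, with a median log2 fold change of -0.12, and -0.01 without batch 2. The capsaicin receptor gene TRPV1 had 9.80, 11.6 and 12.3 CPM in vehicle and 8.30, 11.1 and 12.3 CPM in IL-6 libraries, at a log2 fold change of -0.08 (SE 0.11). PIEZO2, the channel of touch and stretch, had -0.01 (SE 0.09; 0.11 without batch 2) and P2RX3 0.33 (SE 0.21). The 17 identity genes had a median of -0.16 and the 4 cholinergic genes -0.16, with 0 called in both, and without batch 2 these medians were -0.001 and 0.03. Neuropeptide genes had the lowest median of the neuronal lists, -0.39 over 13 genes, 11 of them below 0, and the median was 0.00 without batch 2. CARTPT, the precursor of the CART peptide, was lower in all 6 batches. It had 87.0, 268 and 1525 CPM in vehicle and 58.3, 169 and 400.4 CPM in IL-6 libraries, which overlapped. The log2 fold change was -0.95 (SE 0.43, unadjusted p = 0.0401, adjusted p = 0.850), and -0.25 without batch 2. TAC1, which encodes substance P, had medians of 37.2 and 38.1 CPM and a log2 fold change of -0.16 (SE 0.34), which turned to 0.31 without batch 2. Of the 14 genes induced by nerve injury, 13 were tested, with a median of 0.00 and 0 called. ATF3, the general marker of axotomized neurons, had 38.5, 50.2 and 69.0 CPM in vehicle and 42.0, 52.3 and 85.8 CPM in IL-6 libraries (log2 fold change 0.14, SE 0.07, adjusted p = 0.850), and the galanin gene GAL had -0.56 (SE 0.34), or -0.14 without batch 2.

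Genes of ER stress and the ATF4 pathway had values on the same side. All 12 had a log2 fold change above 0, with a median of 0.26 (all entries, -0.01), and 7 had an unadjusted p under 0.05 (2.32% of all entries were higher at that p), but none passed after adjustment. DDIT3 (CHOP, chr12:57516588-57520517), the factor that couples ER stress to cell death, had 20.9, 25.8 and 41.2 CPM in vehicle and 19.1, 37.5 and 60.3 CPM in IL-6 libraries. It was higher in 5 of 6 batches, and the groups overlapped. Its log2 fold change was 0.44 (SE 0.12, unadjusted p = 0.00148, adjusted p = 0.850), 0.28 without batch 2 and 0.18 without batches 2 and 4. TRIB3, a pseudokinase downstream of ATF4 and CHOP, had 0.31 (SE 0.11, adjusted p = 0.850), and the ER chaperone HSPA5 (BiP) 0.26 (SE 0.13, adjusted p = 0.850). These were 0.16 and 0.10 without batch 2. Without batch 2 the median of the list was 0.10 with 1 member at an unadjusted p under 0.05, against 1.14% of all entries that were higher at that p, and without batches 2 and 4 it was 0.07 with 0 members. In the other contrasts, which share the vehicle libraries, the median of these 12 genes was 0.15 under IL-4 + IL-13 and 0.28 under TGF-β, and DDIT3 had 0.30 and 0.38 in the same order.

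**Figure D4:**
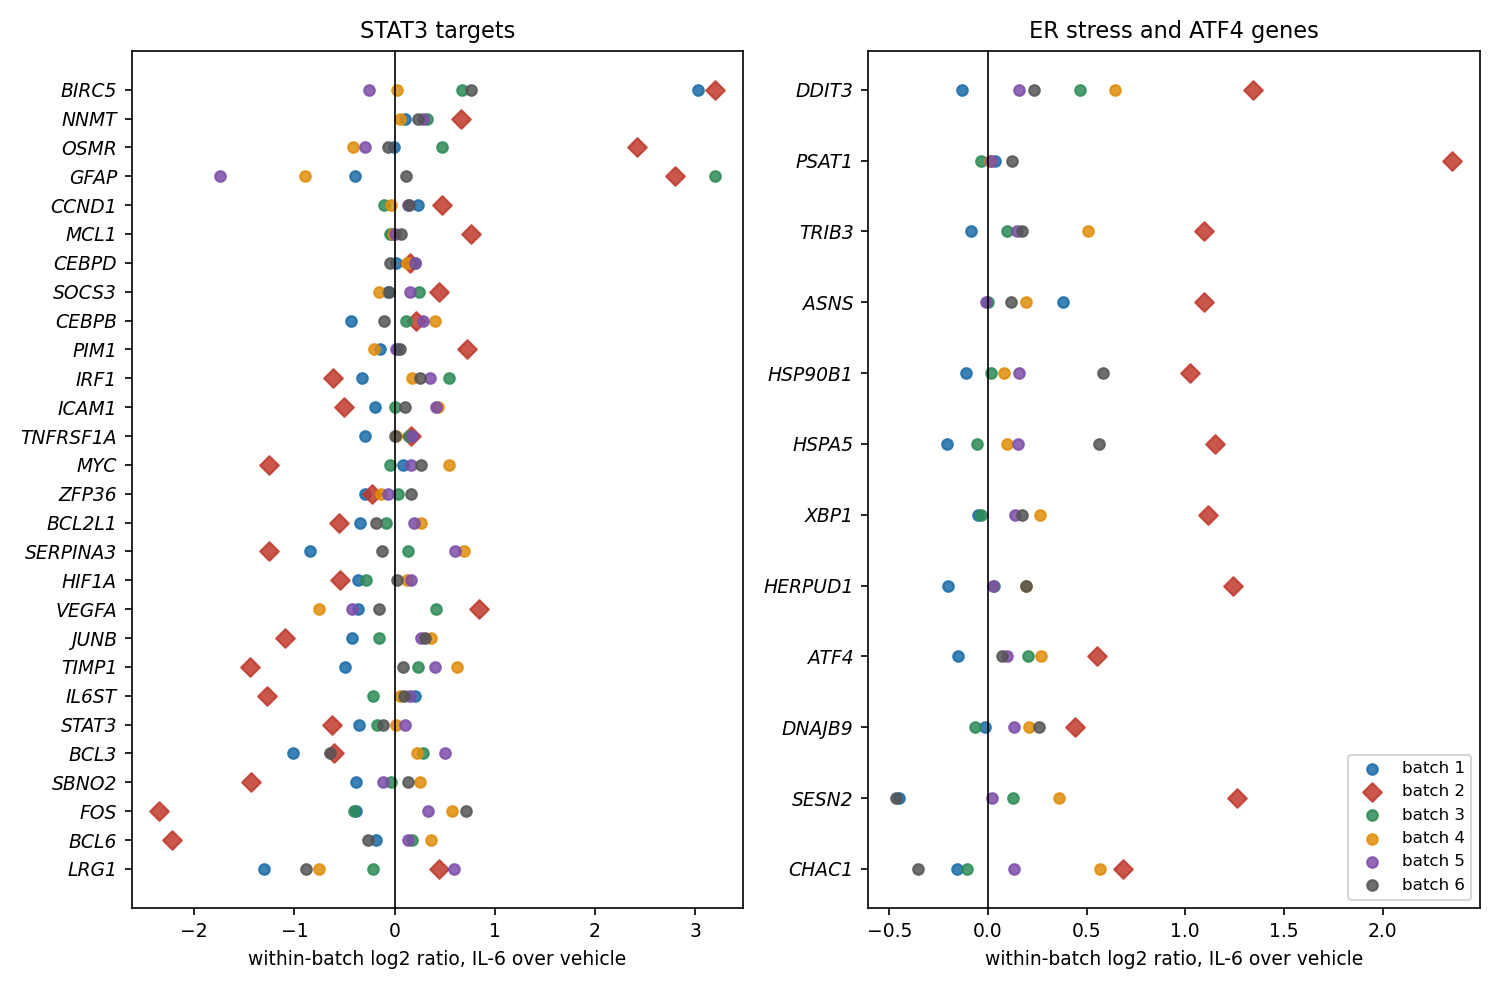
Within-batch log2 ratio of IL-6 over vehicle for each of 28 STAT3 targets (left) and 12 ER stress and ATF4 genes (right), with a symbol per batch and diamonds for batch 2. Batch 2 has the highest ratio for all 12 genes on the right and lies at either extreme for many on the left, for example at -2.22 for BCL6 and 2.42 for OSMR.

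Markers of other cell types also differed between the libraries of a pair. The summed level of the 5 proliferation markers was 17.2, 44.03 and 130 CPM in vehicle and 41.7, 69.5 and 411 CPM in IL-6 libraries, and the within-batch log2 ratio of these sums was 2.32, 2.73, 0.81, -0.32, -0.50 and 0.82 in batches 1 to 6. The 5 genes had a median log2 fold change of 0.92 (all entries, -0.01). Of them, 3 had an unadjusted p under 0.05 (2.32% of all entries were higher at that p) and 0 were called. BIRC5 is also counted among them. Without batch 2 the median was 0.70 with 0 at an unadjusted p under 0.05. Without batches 2 and 4 it was 1.10 with 4, against 464 of 28323 entries that were higher at that p. In the other contrasts, which share the vehicle libraries, the median of these 5 genes was 1.00 under IL-4 + IL-13 and 0.55 under TGF-β. The mesenchymal sum had a log2 ratio of -1.15 in batch 2 and between -0.34 and 0.43 in the other batches, and the neuron sum had -0.22 and 0.40 in batches 2 and 1. Summed levels ranged from 61.7 to 116 CPM and from 76.6 to 124 CPM (vehicle, then IL-6) for 7 Schwann and satellite glia markers, from 487 to 1391 and 529 to 1368 CPM for 5 smooth muscle markers, from 285 to 895 and 256 to 754 CPM for 5 epithelial markers, from 24.4 to 114 and 10.1 to 82.8 CPM for 3 endothelial markers, and from 13.5 to 68.5 and 15.5 to 53.7 CPM for the 4 immune markers tested. They ranged from 85.4 to 637 and 104 to 564 CPM for 5 melanocyte markers, from 23.99 to 33.8 and 22.98 to 28.4 CPM for 4 skeletal muscle markers, from 1.13 to 3.37 and 0.939 to 2.42 CPM for 3 pluripotency markers, and from 0.875 to 1.92 and 0.966 to 1.46 CPM for 4 hepatocyte markers. AIF1, a microglia and macrophage marker, had no reads in the entry examined, and NANOG had 5 reads in the 12 libraries, all in a single IL-6 library, and was called by DESeq2 but not by edgeR. The 13 transcripts of the mitochondrial genome made up 2.89% to 4.79% of the counts in IL-6 and 3.48% to 4.75% in vehicle libraries, with a median log2 fold change of -0.04, and the 8 hypoxia genes had a median of -0.16, with 0 called in both. The part of these levels in the differences given above was not tested.

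The genes with the smallest unadjusted p were led by ATF6B, a membrane-bound factor of the ER stress response. It had 16.2, 17.8 and 23.98 CPM in vehicle and 22.5, 25.03 and 32.97 CPM in IL-6 libraries and was higher in 6 of 6 batches (log2 fold change 0.47, SE 0.09, unadjusted p = 8.5e-05, adjusted p = 0.850). ATF6B is listed as 4 entries, and with these summed the log2 fold change was 0.11 (SE 0.07). NUDT2, a nucleotide hydrolase with a single entry, had 11.8, 13.3 and 15.4 CPM in vehicle and 13.2, 15.9 and 22.3 CPM in IL-6 libraries, which overlapped. It was higher in all batches, with a log2 fold change of 0.32 (SE 0.07, adjusted p = 0.850). NEUROG1, a proneural factor of sensory precursors, was higher in 6 of 6 batches at 1.87 (SE 0.43), with 25 reads or fewer per vehicle library and 11 to 70 per IL-6 library. It is among the entries that DESeq2 called. SPATA18, CHRNA5 (a nicotinic receptor subunit) and CAPS were also higher in all batches, at log2 fold changes of 0.48, 0.48 and 0.53, and TMA7 was higher in 5 of 6 at 0.27. GARRE1 and LDAF1 had 5.08 and 6.17 in secondary entries, but -0.09 and -0.07 with all entries of the symbol summed.

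Among genes that were lower, WDR55, HHEX, USP34 and CLPB were lower in 6 of 6 batches, at log2 fold changes of -0.24, -0.84, -0.18 and -0.22 (adjusted p = 0.850 each). WDR55, a WD-repeat protein, had 30.3, 31.3 and 33.9 CPM in vehicle and 23.5, 26.9 and 30.05 CPM in IL-6 libraries. The groups did not overlap, as for 0.0408% of all entries. HHEX, a homeobox factor, had 0.410, 0.732 and 1.85 CPM in vehicle and 0.189, 0.332 and 1.37 CPM in IL-6 libraries. The uncharacterized LOC124903759 was lower in all batches at -0.64. PRLR (the prolactin receptor), CHST2 and PNPLA6 were lower in 5 of 6 batches, at -0.43, -0.44 and -0.34. TAS2R14 and TAMM41 had -0.96 and -1.11 in secondary entries and -0.02 and -0.04 with the entries of the symbol summed. None of the 20 genes passed the adjusted threshold in edgeR, where lower in 6 of 6 batches held for 1.11% of all entries.

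In the same batches and against the same vehicle libraries, CISH, CCL26 and ALOX15 lay apart from vehicle under IL-4 + IL-13. CISH had 0.786, 1.33 and 1.92 CPM in vehicle and 11.3, 27.8 and 32.6 CPM under IL-4 + IL-13, and its log2 fold change was 4.40, beside 0.41 under IL-6. CCL26 (eotaxin-3) and ALOX15 (15-lipoxygenase), STAT6 targets, had log2 fold changes of 7.86 and 10.58 in the IL-4 + IL-13 contrast, and of -0.48 and -0.41 (SE 0.89 and 0.66) in the IL-6 contrast. Of the 10 STAT6 targets listed, 7 were tested, 4 were called in the IL-4 + IL-13 contrast and 0 in the IL-6 contrast. The fourth of them, IL13RA2, a decoy receptor, overlapped between groups, with 21.9 to 257 CPM in vehicle and 69.99 to 380.2 CPM under IL-4 + IL-13. NNMT and SERPINA3 had log2 fold changes of 0.58 and -1.23 under IL-4 + IL-13, beside 0.27 and -0.15 under IL-6. SOCS3 had -0.15 under IL-4 + IL-13 and 0.14 under TGF-β. These contrasts share their vehicle libraries, and the differences between treatments were not tested.

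**Figure D5:**
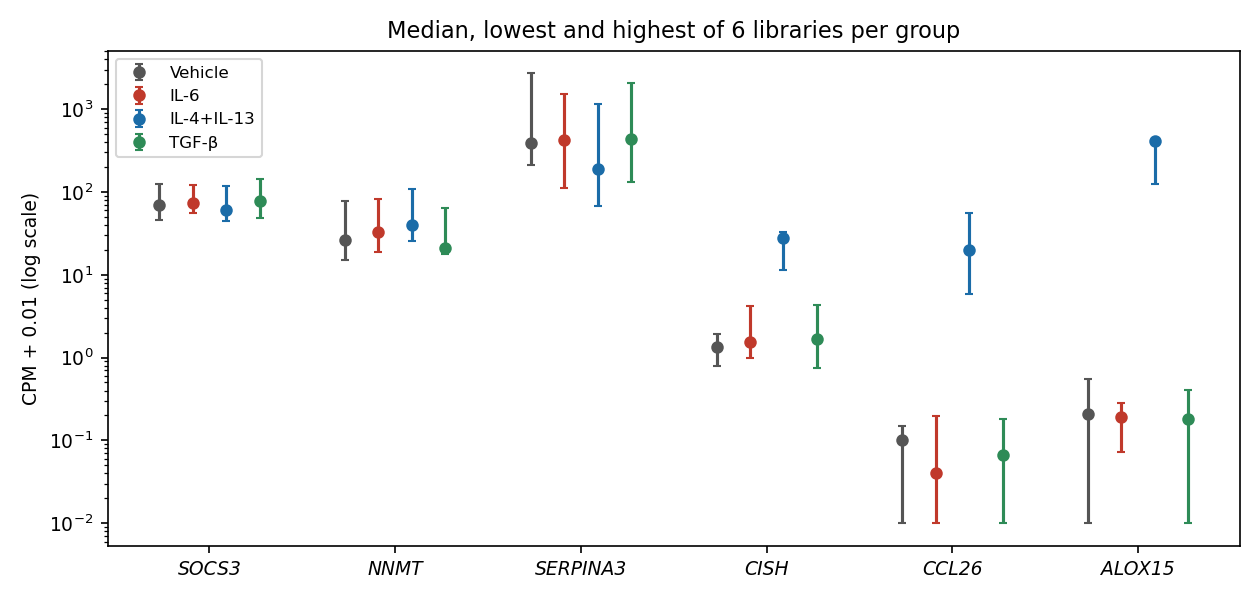
Median (point), lowest and highest (bars) level of 6 libraries per group for SOCS3, NNMT, SERPINA3, CISH, CCL26 and ALOX15, in CPM + 0.01 on a log scale. Under IL-6 each gene overlaps with vehicle, whereas CISH, CCL26 and ALOX15 lie apart from vehicle under IL-4 + IL-13.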

How the data were processed

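Poly(A) RNA of 24 cultures was sequenced. Per the labels and the study's methods, the authors' provider trimmed reads with Trimmomatic 0.30, used GRCh38.p14 and deposited raw counts per gene, without normalization. The aligner, counter and strandedness are not given in the sources used here. The table holds 36468 entries, of which 13161 are NewGene loci and 4886 share a symbol, so reads of such genes may be split.

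Entries with a total count of at least 10 were fitted with edgeR 4.0.16 (R 4.3.3; TMM, robust quasi-likelihood F test, batch and treatment, 24 libraries, Benjamini-Hochberg over 29377 entries). Adjusted p values are edgeR's. SEs are the absolute log2 fold change over the root of F, and within-batch log2 ratios use a prior count of 2. DESeq2 1.42.0 was run beside it. Libraries of a number come from the same labelled batch, so batch was kept as a block, as in the study's model. The IL-6 and vehicle libraries of a batch correlated at -0.04 to 0.89, so the shared label did not go with a high correlation in every pair. Lengths are GENCODE exon unions, and coordinates RefSeq. Both tools were tested on simulated counts drawn without differences between batches, so that test does not cover pairs as unlike as that of batch 2.

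List members were named, and per direction the 10 symbols of smallest p with a mean count of at least 10, since none passed. Some genes that the rule or the lists hold are not reported here. Members and lists were chosen with earlier results of these data known. p-values measure the spread between cultures of a single line.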

Additional observations from a re-analysis of the deposited data

Results flagged for a closer look

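The receptor, inhibitor, STAT3 target and ER stress lists, with IL6 and LIF, gave 51 genes. For each, every group of 6 libraries or ratios was examined for a value far from the others by Dixon's criterion. Independent, normally distributed values meet it in about 1 of 20 groups. The CPM were not put on a log scale and the genes share their libraries, so that rate need not hold here. Of 153 groups 45 held such a value, most often in vehicle libraries of batch 1 and in ratios of batch 2. Batch 2 itself stood apart in its SD of log2 differences, 0.651, and in its 51.8% of the summed squares.

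The within-batch log2 ratio of batch 2 was far above the others for ASNS (1.09), HERPUD1 (1.24), MCL1 (0.76), OSMR (2.42), PIM1 (0.72), PSAT1 (2.35) and XBP1 (1.12). It was far below them for BCL6 (-2.22), FOS (-2.35), IL6R (-2.36), IL6ST (-1.27) and MYC (-1.26). In batch 1 the ratio stood apart for SOCS2 (1.18) and TNFRSF1A (-0.30).

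The IL-6 library of batch 2 was far above the other IL-6 libraries for BIRC5 (32.3 CPM), CISH (4.19 CPM), HSPA5 (1586 CPM), OSMR (101 CPM), PSAT1 (355 CPM), SESN2 (35.96 CPM) and XBP1 (257 CPM), and far below for BCL6 (14.3 CPM), IL6R (1.14 CPM) and PTPN6 (0.493 CPM). The IL-6 library of batch 1 was far above for CCND1 (489.9 CPM), CEBPB (40.8 CPM) and NNMT (82.5 CPM).

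The vehicle library of batch 1 was far above the other vehicle libraries for CCND1 (416 CPM), CEBPB (55.3 CPM), HIF1A (754 CPM), HSP90B1 (1803 CPM), HSPA5 (1188 CPM), IL6R (9.08 CPM), IRF1 (11.4 CPM), LIF (193 CPM), LRG1 (1.24 CPM), MCL1 (329 CPM), NNMT (76.8 CPM), PTPN6 (4.09 CPM), SERPINA3 (2713 CPM), STAT3 (550.3 CPM), TNFRSF1A (138 CPM) and ZFP36 (9.70 CPM), and below them for PIAS1 (66.7 CPM). In batch 6 the vehicle library was far from the others for PSAT1 (92.3 CPM). The causes were not tested.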

How the results depend on the processing

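The count of 0 called genes held in all 17 edgeR alternatives, with 495 to 2554 entries at an unadjusted p under 0.05, and changed under DESeq2, which called 155. The cause was not tested. With no replicate block, 577 entries had an unadjusted p under 0.05 and SOCS3 had a log2 fold change of 0.06, so the pairing changed no call. No STAT3 target was called under any alternative. Leaving out each batch in turn gave 0 called genes, a median of the STAT3 targets from -0.12 to 0.03 (0.03 without batch 2), SOCS3 from 0.02 to 0.14, and a shared portion of the differences from 18.5% to 25.8%, where unrelated differences over 5 batches give 20% and 4 of the 6 values lie below that. The sign of 2 receptor genes, neither past the threshold, changed with the batches kept. IL6R was at 0.12 without batches 1 and 2, and stayed below 0 without batch 2 alone (-0.02). IL6ST was at 0.0566 without batch 2 (-0.268 without batch 1), 0.0287 without batches 1 and 2, 0.0588 without batches 2 and 4, and 0.0389 without the vehicle library of batch 2. Among the genes of smallest p, DESeq2 called 4, NEUROG1 (1.90) and secondary entries of GARRE1 (5.14), LDAF1 (5.95) and TAMM41 (-1.11), and among list members CRP and NANOG. The summing of entries was chosen after seeing the data. NEUROG1 and most hepatic genes had few reads, so their intervals are wide.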
